A study of Mus musculus with 6 samples.

Results

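The genes described here are Cd55, its receptor partner Cd97, and the complement genes Cd59a, Cr1l, C3 and Serping1. They were chosen by name, as the rows of the expression tables that carry these 6 symbols, out of 24457 rows on chromosomes. All 6 were among the 11717 genes that were high enough to be tested, which required 2 or more libraries at an FPKM of 1 or higher. FPKM counts the sequenced fragments of a gene relative to the length of the transcript and the depth of the library, so levels can be set side by side between genes.

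The libraries were made from thymic endothelial cells (ECs) of wild-type female C57BL/6 mice, whose age the labels give as between 4 and 6 weeks. The cells were sorted as CD31+CD45-EpCAM- and divided by surface Ly6C and P-selectin (Selp) into Ly6C+Selp- (type I), Ly6C+Selp+ (type II) and Ly6C-Selp+ (type III) ECs, with 2 libraries of each subset. The labels put the purity of each sort at 90% or more. Nothing in the labels says whether the 2 libraries of a subset came from separate mice or pools, so p-values measure only the spread between these libraries, which may be technical. In sorted bulk RNA, a subset with fewer cells that express a gene cannot be told apart from one with less RNA of that gene per cell. About 1452476 to 2423171 fragments per library were read back from the deposited intervals, and 3 fragments corresponded to a median FPKM of 0.32 to 0.55. Selp and Ly6c1 followed the sort, with Selp at 5.20 and 7.87 in type I ECs and at 313 or more in the other libraries, and Ly6c1 at 59.7 and 99.6 in type III ECs and at 351 or more elsewhere. All 10 endothelial markers examined were above 0 in every library, with a summed FPKM of 2134 to 3044.

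Complement is a cascade of plasma proteins in which C3 is split on nearby surfaces, and host cells keep it in check with membrane and soluble regulators. CD55 (decay-accelerating factor) is held in the membrane by a GPI anchor and breaks up the convertases that split C3. Crry, the product of Cr1l, acts at the same step in rodents, CD59 blocks the pore that the last components form, and C1 inhibitor, the product of Serping1, inactivates the first proteases of the classical and lectin pathways. CD97 is an adhesion G protein-coupled receptor, found on leukocytes and other cells, that binds CD55 through its extracellular EGF-like domains.

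The bases before the start of the 3 membrane regulators are printed because these genes act on the same surface but differed in how they varied between the subsets. The 250 bases upstream of each start were taken from RefSeq (GRCm38.p6) and read 5′ to 3′ on the strand of the gene. Each was found exactly once in mm9, the build of the files. For Cd55 they are chr1:130462745-130462994, minus strand (mm9 chr1:132359322-132359571). For Cr1l, also on chromosome 1, they are chr1:195131571-195131820, minus strand (mm9 chr1:196957765-196958014). For Cd59a they are chr2:104095551-104095800, plus strand (mm9 chr2:103935708-103935957). Capitals mark matches to the GC box GGGCGG, read on either strand.
Cd55: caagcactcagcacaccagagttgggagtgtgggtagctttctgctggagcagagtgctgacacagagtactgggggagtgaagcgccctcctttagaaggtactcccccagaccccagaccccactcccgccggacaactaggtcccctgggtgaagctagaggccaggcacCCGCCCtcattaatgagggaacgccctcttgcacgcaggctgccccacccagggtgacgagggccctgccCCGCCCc
Cr1l: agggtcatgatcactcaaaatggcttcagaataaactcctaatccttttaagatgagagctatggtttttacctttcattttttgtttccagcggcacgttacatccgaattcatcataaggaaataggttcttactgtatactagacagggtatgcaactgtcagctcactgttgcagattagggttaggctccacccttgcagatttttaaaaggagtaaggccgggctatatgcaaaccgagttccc
Cd59a: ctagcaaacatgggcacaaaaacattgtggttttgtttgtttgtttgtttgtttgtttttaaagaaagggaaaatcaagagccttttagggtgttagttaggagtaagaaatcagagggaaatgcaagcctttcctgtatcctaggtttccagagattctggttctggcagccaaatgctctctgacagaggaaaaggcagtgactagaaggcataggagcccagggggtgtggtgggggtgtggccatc
Both matches in Cd55 lie on the opposite strand, 77 and 7 bases before the start. Of 32851 promoters in the same table, 32.7% hold a GC box in this window. The other motifs searched on both strands were the ETS core CCGGAA, the AP-1 site TGANTCA, the STAT element TTCNNNGAA and the RBPJ site TGGGAA, which 12%, 6.75%, 7.02% and 21.6% of all promoters hold. No match to these 4 was found in the windows of Cd55, Cr1l, Cd59a or C3, and no GC box in the windows of Cr1l, Cd59a or C3. The GC content of the window was 64% for Cd55, 41.6% for Cr1l, 44.8% for Cd59a and 52% for C3, against a median of 52.4% over all promoters. Cd97 and Serping1 were not matched in this table. Letters that match a motif describe the window and do not show that a factor binds there.

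The first question is how the level of CD55 transcripts was distributed over the subsets. Cd55, on chromosome 1 of mm9 (132335607 to 132359317, minus strand), rose from type I (Ly6C+Selp-) to type III (Ly6C-Selp+) ECs. Its FPKM was 3.43 and 1.32 in the type I libraries, 9.05 and 12.1 in the type II libraries and 42.2 and 25.1 in the type III libraries. No library of a subset overlapped with one of another, and the deposited 95% intervals of the libraries did not overlap between subsets either. The interval reached up to 4.80 in type I ECs, spanned 6.48 to 14.5 in type II ECs and started at 21.7 in type III ECs. The means were 2.37 ± 1.49 (SD, n = 2), 10.6 ± 2.19 (SD, n = 2) and 33.7 ± 12 (SD, n = 2), so the mean FPKM was 14.2 times as high in type III as in type I ECs. As log2(FPKM + 1), a scale on which the changes of low genes look smaller than they are, the difference was 3.39 (standard error 0.39, 95% interval 2.50 to 4.28, limma adjusted p = 0.0018). Within replicate 1 it was 3.29 and within replicate 2 it was 3.50.

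Few reads lay behind the low end of this range. The type I values rested on about 25 and 12 fragments, the type II values on 49 and 104, and the type III values on 213 and 218. Cd55 stood above 29.4% and 16.6% of the tested genes in the type I libraries, and above 90.4% and 85% of them in the type III libraries. It thus moved from the lower part of the tested genes to the upper part. The single steps were less certain. From type I to type II ECs the log2 difference was 1.84 (standard error 0.39, 95% interval 0.95 to 2.74, limma adjusted p = 0.12). This step passed the threshold with the replicate number as a block (limma adjusted p = 0.038) and with the libraries scaled to equal medians (1.91, limma adjusted p = 0.049). From type II to type III ECs it was 1.55 (standard error 0.39, 95% interval 0.65 to 2.44, limma adjusted p = 0.19), and the block gave limma adjusted p = 0.059. Cd55 is in the list of differential genes that the study drew from these same libraries, as is Cd97, so their directions are not independent evidence.

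Leukocytes also express Cd55 and Cd97, and the sort excluded CD45+ cells. The summed FPKM of 13 haematopoietic markers, of which Lyz2, Lck, Cd3g and Ptprc were highest, was 286 and 44.8 in type I ECs, 127 and 65.4 in type II ECs and 499 and 128 in type III ECs, with none of the 13 at 0 in any library. Within each replicate number the sum, like the level of Cd55, was highest in type III ECs. Of the 12 tested markers, 0 passed in limma between type I and III, with 2 at an unadjusted p under 0.05, both higher in type III ECs. Their median log2 difference was 0.96, against 0.08 over all tested genes. Between type II and III ECs 0 of the 12 passed in limma, 5 had an unadjusted p under 0.05, all higher in type III ECs, and the median was 1.34, against 0.14 over all tested genes. The libraries of 8 of the 12 did not overlap in this comparison, all higher in type III ECs, where 41.0% of all tested genes did not overlap. With the replicate number as a block in the fit, Cd3g, a T cell receptor complex gene, passed as higher in type III than in type I ECs (log2 difference 1.66, limma adjusted p = 0.0069) and than in type II ECs (1.54, limma adjusted p = 0.035). The part of leukocyte RNA in the levels of Cd55 and Cd97 was not tested.

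Of the 10 endothelial markers, 2 fell from type I to type III ECs, the tight junction gene Cldn5 (-3.70, limma adjusted p = 0.00025) and the VEGF receptor gene Kdr (-1.49, limma adjusted p = 0.0079), and Pecam1, Cdh5, Esam and Egfl7 were at 183 or more in every library. In this comparison 4.14% of all tested genes passed. Cldn5 was also the only endothelial marker that fell from type II to type III ECs (-2.07, limma adjusted p = 0.041), where 0.222% of all tested genes passed. With the block, Cldn5 (limma adjusted p = 0.0061) and Kdr (limma adjusted p = 0.038) also passed as lower in type II than in type I ECs. Thymic epithelial markers (highest Krt8, Krt5, Psmb11 and Aire) summed to 14.2 to 50.0. Lymphatic endothelial markers (highest Flt4, Pdpn, Lyve1 and Prox1) summed to 9.85 to 30.1. Lyve1 was at 0 in both type I libraries, at 0 and 0.112 in type II ECs and at 12.4 and 1.07 in type III ECs. Of the thymic epithelial and lymphatic lists, 0 of the 11 genes tested passed in limma between type I and III, with 5 at an unadjusted p under 0.05. Of these 5, 3 were among the 4 lymphatic genes tested, 2 higher and 1 lower in type III ECs. The other 2 were thymic epithelial, 1 higher and 1 lower. With the block, Prox1 passed as higher in type III than in type I ECs (1.54, limma adjusted p = 0.029), and Flt4 (-1.06, limma adjusted p = 0.019) and Krt5 (limma adjusted p = 0.050, just under the threshold) passed as lower. Flt4 (limma adjusted p = 0.034) and Krt5 (limma adjusted p = 0.014) also passed as lower in type II than in type I ECs, and Krt14 as higher in type III than in type II ECs (limma adjusted p = 0.048). Prox1 and Krt14 were below an FPKM of 1 in type I ECs, so the filter kept them through other libraries, where they were higher.

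**Figure D1:**
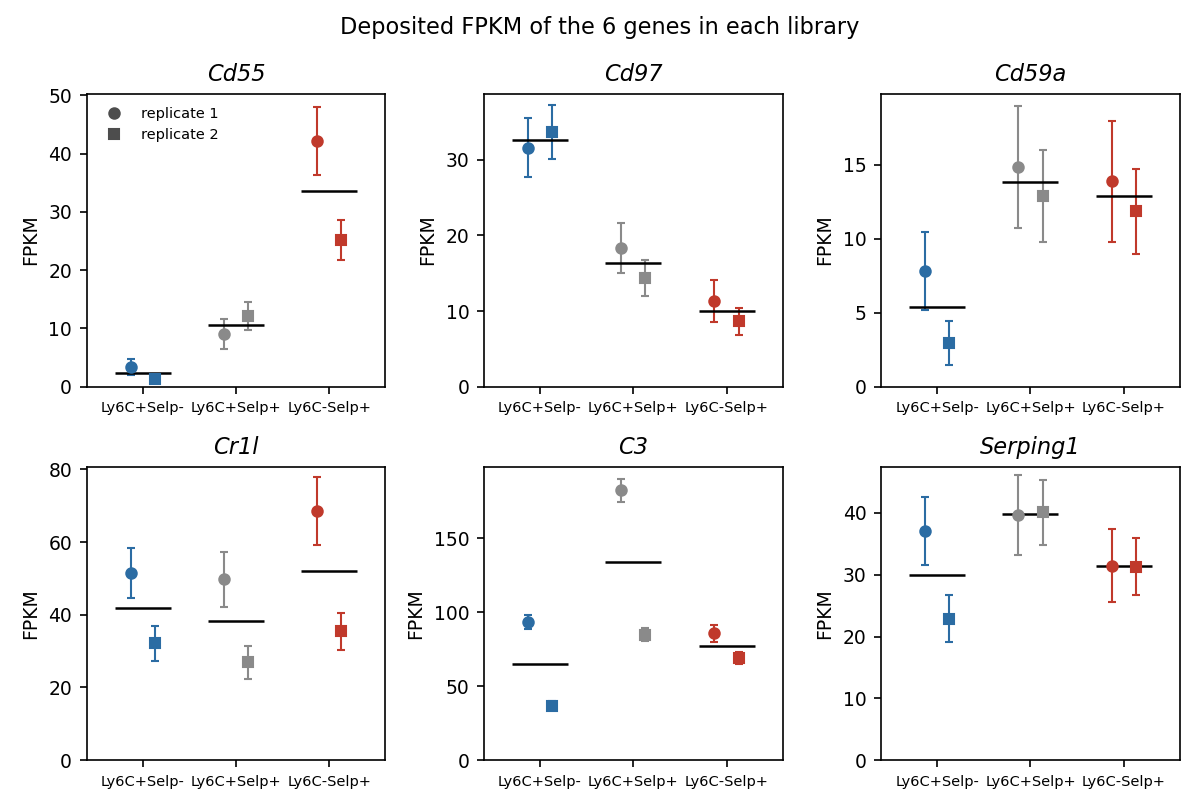
Deposited FPKM of each of the 6 genes (vertical axis, from 0) in type I (Ly6C+Selp-), type II (Ly6C+Selp+) and type III (Ly6C-Selp+) ECs (horizontal axis), with 1 symbol per library, circles or squares for the replicate number, the deposited 95% interval as an error bar and a black line at the mean of each subset. Cd55 goes from 1.32 and 3.43 in type I ECs to 25.1 and 42.2 in type III ECs, Cd97 goes from 31.6 and 33.7 to 8.64 and 11.3, and the subsets of Cr1l overlap.

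Cd97 went in the opposite direction. The gene, now also named Adgre5, lies on the minus strand of chromosome 8 from 86247150 to 86265210. Its FPKM was 31.6 and 33.7 in type I ECs, 18.3 and 14.3 in type II ECs and 11.3 and 8.64 in type III ECs. The libraries of the 3 subsets did not overlap. The deposited intervals of type I ECs started at 27.7, above all others, while those of the other subsets overlapped, from 11.9 up in type II ECs and up to 14.1 in type III ECs. The estimated fragments were 266 and 355 in type I ECs and 65 and 96 in type III ECs. Cd97 fell by 1.63 on the log2 scale between these subsets (standard error 0.27, 95% interval -2.24 to -1.01, limma adjusted p = 0.010), and the mean FPKM was 3.27 times as high in type I ECs. This call was lost in the fits without type I replicate 2 (-1.58, limma adjusted p = 0.065) and without type III replicate 2 (-1.45, limma adjusted p = 0.089).

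Between type I and type II ECs the log2 difference of Cd97 was -0.97 (95% interval -1.58 to -0.35, limma adjusted p = 0.27), and from type II to type III ECs it was -0.66 (95% interval -1.27 to -0.05, limma adjusted p = 0.46). Neither step passed the threshold, with or without the replicate block. In mm9 the row of Cd97 overlaps that of the RNA helicase gene Ddx39 by 101 bases. Ddx39 had an FPKM of 6.09 to 12.7, and its libraries were not ordered by subset as those of Cd97 were. Reads in the shared bases cannot be assigned to 1 gene with certainty, since the strandedness of the libraries is not given in the sources used here.

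The opposite courses of Cd55 and Cd97 changed which of the pair had the higher level. The ratio of Cd55 to Cd97 FPKM was 0.108 and 0.0391 in type I ECs, 0.494 and 0.849 in type II ECs and 3.74 and 2.91 in type III ECs. Receptor transcripts were thus above ligand transcripts in all 4 type I and type II libraries and below them in both type III libraries. In type II replicate 2 the deposited intervals of Cd55 (9.77 to 14.5) and Cd97 (11.9 to 16.7) overlapped, so the order there is uncertain. Ordered by mean FPKM, Cd55 was the last of the 6 genes in type I and in type II ECs and the third in type III ECs, where Cd97 was the last. In type III replicate 2 alone, Cd55 (25.1) was below Serping1 (31.3). C3 had the highest mean of the 6 genes in every subset. The libraries of the 3 subsets separated completely and rose for 485 tested genes (4.14%), among them Cd55, and fell for 425 (3.63%), among them Cd97.

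**Figure D2:**
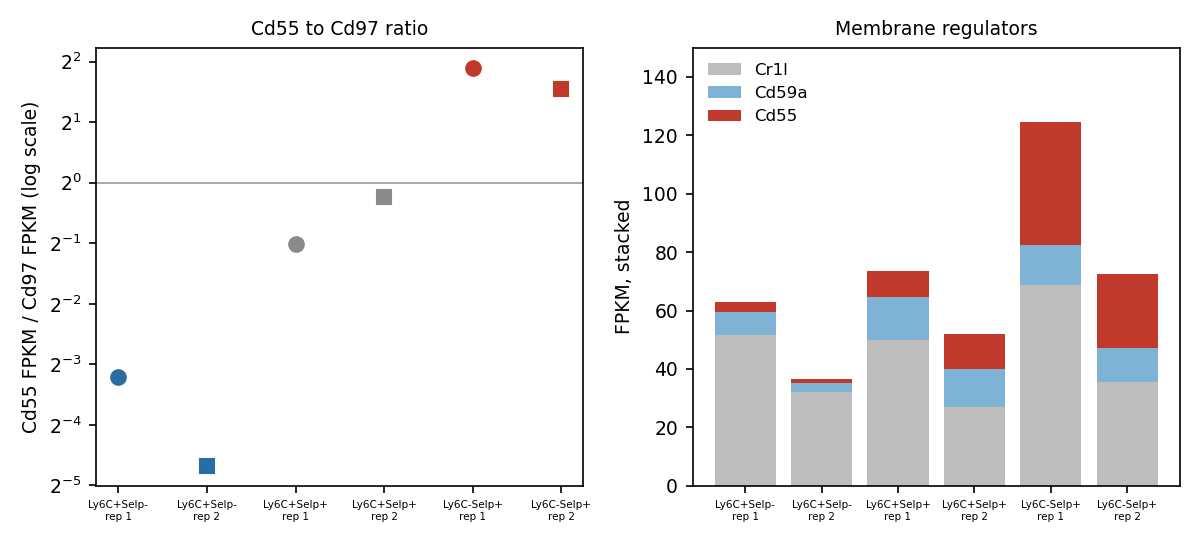
Left, ratio of Cd55 to Cd97 FPKM in each library on a log2 axis, with a line where the levels are equal: only the type III libraries, at 3.74 and 2.91, lie above it. Right, stacked FPKM of the membrane regulators Cr1l, Cd59a and Cd55 in each library (linear axis from 0), in which Cd55 takes 3.61% and 5.46% of the sum in type I ECs and 33.8% and 34.7% in type III ECs.

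The next question is whether the other regulators on the membrane varied in the same way. Cd59a, on the plus strand of chromosome 2 from 103935958 to 103955567, had an FPKM of 7.84 and 2.97 in type I ECs, 14.8 and 12.9 in type II ECs and 13.9 and 11.9 in type III ECs. Both type I libraries were below the others, and type II and III ECs overlapped. The log2 difference between type I and type III ECs was 1.22 (standard error 0.38, 95% interval 0.35 to 2.09, limma adjusted p = 0.15). It passed with the replicate block (limma adjusted p = 0.035) and without type I replicate 1 (1.8, limma adjusted p = 0.033). It was 1.32 between type I and type II ECs (95% interval 0.45 to 2.19, limma adjusted p = 0.31) and -0.10 between type II and III ECs (95% interval -0.97 to 0.77, limma adjusted p = 0.97). Only 16 to 70 fragments lay behind a value of this gene.

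Cr1l, on the minus strand of chromosome 1 from 196929982 to 196957764, was the most abundant membrane regulator in every library. Its FPKM was 51.5 and 32.2 in type I ECs, 49.8 and 26.9 in type II ECs and 68.6 and 35.4 in type III ECs. The subsets overlapped, and replicate 1 was above replicate 2 in each, by 1.60, 1.85 and 1.94 times. The same order of replicates in all 3 subsets was seen in 39.3% of the tested genes. The log2 difference between type I and type III ECs was 0.27 (standard error 0.41, limma adjusted p = 0.86). Its 95% interval, -0.65 to 1.19, leaves room for a change in either direction. The level of Cr1l was 15.0 and 24.4 times that of Cd55 in type I ECs, 5.50 and 2.22 times in type II ECs and 1.63 and 1.41 times in type III ECs. The summed FPKM of the 3 membrane regulators was 62.8 and 36.5 in type I ECs, 73.6 and 52.0 in type II ECs and 125 and 72.4 in type III ECs. Within this sum, Cd55 took 5.46% and 3.61%, then 12.3% and 23.4%, then 33.8% and 34.7%.

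The other membrane regulators on the list of 10 were below the filter. Cd55b, a close copy of Cd55, was listed at 0 in every library, and Cd59b, a close copy of Cd59a, had a mean FPKM of 0.242. How reads that match both copies were counted is not given in the sources used here, so the split between copies is uncertain. Cd46 had a mean of 0.112, Cr2 of 0.128, Vsig4 of 0.121, Susd4 of 0.238 and Csmd1 of 0.596. Most of these means are below the median FPKM of 3 fragments.

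C3 and Serping1 encode secreted proteins. C3, on the minus strand of chromosome 17 from 57343396 to 57367559, had an FPKM of 93.4 and 36.9 in type I ECs, 182 and 84.8 in type II ECs and 85.6 and 68.9 in type III ECs. The highest and the lowest library differed by the replicate as well as by the subset, since replicate 1 was 2.53, 2.15 and 1.24 times replicate 2. The log2 difference was 1.07 between type I and type II ECs (standard error 0.46, 95% interval 0.02 to 2.12, limma adjusted p = 0.65). It was 0.38 between type I and type III ECs (95% interval -0.67 to 1.43, limma adjusted p = 0.83), and -0.12 within replicate 1 and 0.89 within replicate 2. From 704 to 2143 fragments lay behind each value, so counting error was small beside the difference between replicates.

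The sum of fibroblast and mural cell transcripts was also highest in the library where C3 was highest, but not every marker was. Rgs5 (FPKM 346) and Pdgfrb (39.0) were highest in type I replicate 1. Acta2 (37.0), Myh11 (40.8) and Cspg4 (5.82) were highest in type II replicate 2. Pdgfra, Col1a1, Col1a2, Col3a1, Dcn and Lum were highest in the library where C3 was. The summed FPKM of 11 fibroblast and mural markers was 684 and 319 in type I ECs, 805 and 507 in type II ECs and 253 and 292 in type III ECs, with Rgs5, Col3a1, Dcn and Col1a2 the highest and none of the 11 at 0 in any library. Dcn, a proteoglycan gene of fibroblasts, was at 53.8, 23.3, 134, 53.6, 51.6 and 33.9 in the same order. Between type II and III ECs 0 of the 11 passed in limma, and 8 had an unadjusted p under 0.05, all lower in type III ECs. With the block, Rgs5 passed as lower in type III than in type I (limma adjusted p = 0.0051) and type II ECs (limma adjusted p = 0.023), Pdgfrb as lower in type III than in type II ECs (limma adjusted p = 0.027), and Dcn and Lum as higher in type II than in type I ECs (limma adjusted p = 0.034 and 0.042). The part of these cells in the level of C3 was not tested.

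Serping1, on the minus strand of chromosome 2 from 84605517 to 84615586, did not pass in any comparison. Its FPKM was 37.0 and 22.9 in type I ECs, 39.6 and 40.1 in type II ECs and 31.5 and 31.3 in type III ECs. The type II and III libraries were close within each subset and did not overlap between them, and the type I libraries spread over a wider range. The log2 difference was 0.10 between type I and type III ECs (standard error 0.28, 95% interval -0.53 to 0.73, limma adjusted p = 0.93), 0.44 between type I and type II ECs (95% interval -0.19 to 1.07, limma adjusted p = 0.85) and -0.34 between type II and III ECs (95% interval -0.97 to 0.29, limma adjusted p = 0.77).

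**Figure D3:**
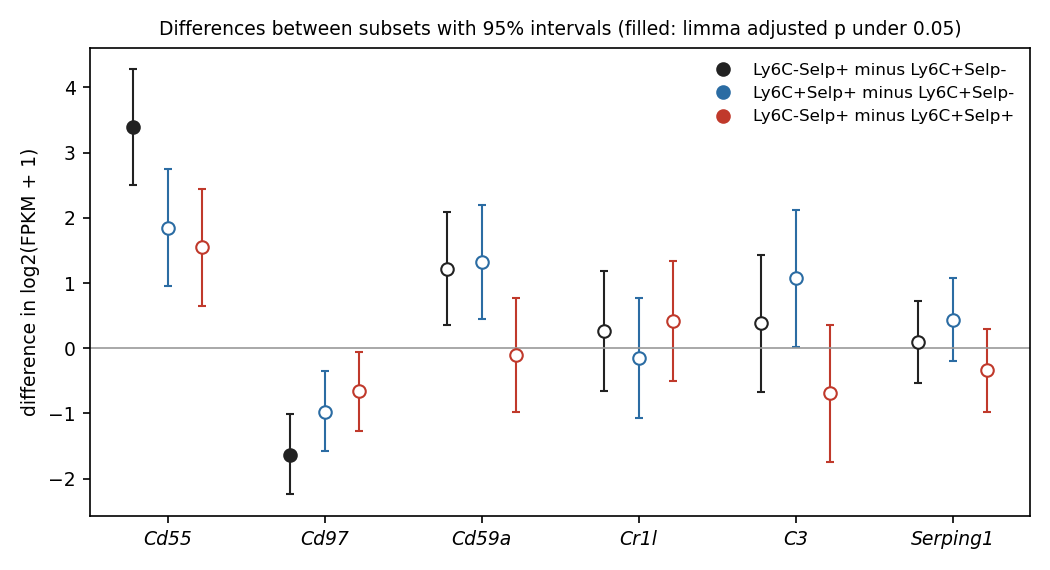
Difference in log2(FPKM + 1) between each pair of subsets (vertical axis) for the 6 genes (horizontal axis), with the 95% interval of the limma fit as a bar, filled where the adjusted p is under 0.05. The filled symbols are Cd55 at 3.39 and Cd97 at -1.63, both between type I and type III ECs.

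Between type I and type III ECs, 2 of the 6 genes passed limma's threshold, Cd55 higher and Cd97 lower, where 4.14% of all tested genes passed. With the replicate block 3 of 6 passed, Cd59a being the third, against 8.29% of all genes. Between type I and type II ECs, 0 of 6 passed in limma, against 0.393% of all genes, and 4 of 6 had an unadjusted p under 0.05 (Cd55, Cd59a and C3 higher, Cd97 lower). The block gave 1 of 6, Cd55, against 1.56%. Between type II and type III ECs, 0 of 6 passed in limma, against 0.222%, or 1.95% with the block, which also called 0 of 6, and 2 of 6 had an unadjusted p under 0.05 (Cd55 higher, Cd97 lower). With libraries scaled to equal medians, 2, 1 and 0 of the 6 genes passed in these comparisons, against 5.68%, 0.708% and 0.674% of all genes. The libraries did not overlap for 3 of 6 genes between type I and type III ECs (Cd55, Cd59a and Cd97), where 37.9% of all tested genes did not. For the step to type II ECs these counts were 4 of 6 (Serping1 added) and 33.6%, and for the step between type II and III ECs 3 of 6 (Cd55, Cd97 and Serping1) and 41.0%. The comparisons share libraries, so they are not independent of each other. For an unadjusted p under 0.05, no share of all tested genes is given. Counts at that level, here and for the lists, therefore have no background to be read against.

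The rest of the complement system gives the setting of these genes. Of all tested genes, 4.14% passed in limma between type I and type III ECs, the share to set beside the list counts that follow. Among 10 fluid-phase regulators examined, 4 were tested, and 1 passed between type I and type III ECs. This was Vtn, which encodes vitronectin, a plasma and matrix protein that also binds the terminal complex. Vtn was at 30.6 and 13.7, at 17.5 and 15.4, and at 4.34 and 4.86 FPKM in the 3 subsets in order, and fell by 1.95 on the log2 scale from the first to the last (limma adjusted p = 0.019). Pdgfrb, a pericyte gene, fell by 1.85 on the log2 scale in the same comparison (limma adjusted p = 0.013). It was the only 1 of the 11 fibroblast and mural markers that passed, and their median log2 difference was -0.36. Acta2 (1.16), Myh11 (0.73), Dcn (0.23) and Lum (0.16) went the other way. The part of such cells in the level of Vtn was not tested. Clu, which encodes clusterin, was the most abundant gene of the list at 80.0 to 113, with a log2 difference of 0.41 (limma adjusted p = 0.49). Cfp, which encodes properdin, a protein that stabilizes the convertase rather than restrains it, had a log2 difference of 0.30 (limma adjusted p = 0.92). The median log2 difference of the 4 tested genes was 0.20, against 0.08 over all tested genes.

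Among C3 and the alternative pathway genes, Cfb rose. Cfb encodes factor B, the protease that joins cleaved C3 to form the convertase that CD55 takes apart. Its FPKM was 34.9 and 27.3 in type I ECs, 48.1 and 52.3 in type II ECs and 73.7 and 87.8 in type III ECs. All 3 subsets were separate, with a log2 difference of 1.35 between the first and the last (standard error 0.25, limma adjusted p = 0.015). Cfd, which encodes factor D, the protease that activates factor B, was at 0.443 and 3.19 in type I ECs and listed at 0 in both type III libraries (limma adjusted p = 0.34).

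Of 19 classical and lectin pathway genes, 11 were tested and 1 passed between type I and type III ECs, with a median log2 difference of 0.44 over the 11. Masp1, which encodes a protease of the lectin pathway, was at 0.125 and 0.200, at 0.825 and 2.64, and at 4.37 and 5.47 FPKM. It rose by 2.34 on the log2 scale (limma adjusted p = 0.015), from a level under the median FPKM of 3 fragments. Masp1 passed the filter only through type II and III libraries, where it was higher. C1ra, a protease gene of the C1 complex that C1 inhibitor acts on, was at 13.4 and 5.18, at 27.8 and 15.9, and at 24.0 and 18.9 (log2 difference 1.24, limma adjusted p = 0.20), and passed with the replicate block (limma adjusted p = 0.018). C1s, its partner protease, was at 49.6 and 18.0, at 78.8 and 30.2, and at 27.1 and 25.8 (log2 difference -0.17, limma adjusted p = 0.94).

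The genes of C1q, the recognition part of the classical pathway that macrophages make, were higher in replicate 1 of every subset. C1qa was at 75.1 and 11.0, at 40.6 and 9.81, and at 109 and 16.5 FPKM. Its log2 difference between type I and type III ECs was 0.53 (standard error 1.02, limma adjusted p = 0.90). C1qb and C1qc differed by 0.44 (limma adjusted p = 0.90) and 0.55 (limma adjusted p = 0.87). The sum of C1qa, C1qb and C1qc was 233 and 40.6, 103 and 30.3, and 321 and 61.5. The haematopoietic marker sum given above, led by the macrophage gene Lyz2, was also higher in replicate 1 of every subset. Their part in the C1q values was not tested.

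**Figure D4:**
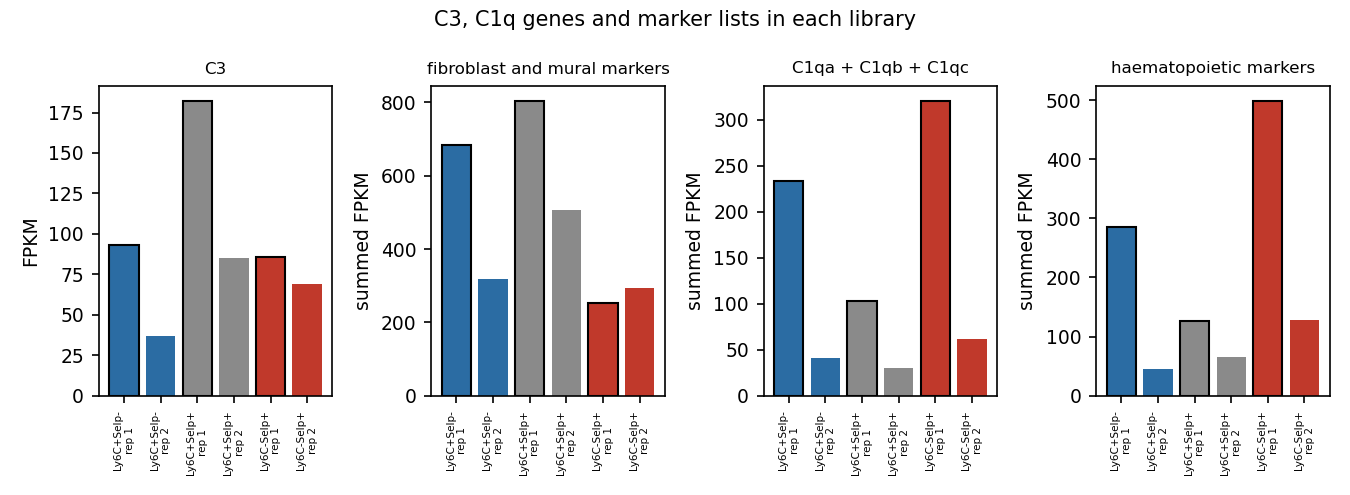
FPKM of C3 and summed FPKM of fibroblast and mural markers, of the C1q genes and of haematopoietic markers (vertical axes, from 0) in each of the 6 libraries, coloured by subset and with a black outline for replicate 1. C3 and the fibroblast and mural sum are both highest in type II replicate 1, at 182 and 805, and the C1q and haematopoietic sums are both highest in type III replicate 1, at 321 and 499.

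The late components and the receptors of complement were mostly low. Of 7 terminal pathway genes, C7 and C8g were tested, with a mean FPKM of 0.953 and 0.651, and 0 passed in limma in any comparison, also with the block or at an unadjusted p under 0.05. C6 and C9 had means of 0.365 and 0.0611 and were not tested. Of 7 complement receptor genes, 3 were tested and 1 passed. Cd93, an endothelial surface protein once named as a receptor for C1q, was at 216 and 174, at 154 and 119, and at 94.3 and 83.9. It fell by 1.11 on the log2 scale (limma adjusted p = 0.038). Itgb2, a leukocyte integrin chain that forms complement receptors, was at 1.53 to 21.8 (log2 difference 1.28, limma adjusted p = 0.51), and Itgax, a chain that pairs with it, at 0.351 to 3.84 (0.83, limma adjusted p = 0.54). C3ar1, the receptor for a C3 fragment, had a mean of 0.509 and was not tested. No gene of the fluid-phase, classical and lectin, alternative, terminal or receptor lists passed in limma in the comparisons with type II ECs, where 4 of 23 tested genes between type I and II and 5 of 23 between type II and III had an unadjusted p under 0.05. With the replicate block, C1qc passed in both, in opposite directions. It was lower in type II than in type I ECs (-0.96, limma adjusted p = 0.045) and higher in type III than in type II ECs (1.51, limma adjusted p = 0.0098). Vtn passed as lower in type III than in type II ECs (-1.64, limma adjusted p = 0.042).

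CD97 also has ligands other than CD55 and signals through G proteins of the G12/13 class to RhoA. Of 12 genes for ligands and for this route, all tested, only Cd55 passed between type I and type III ECs. Itgb1, an integrin chain of a further ligand, was at 149 and 89.7, at 145 and 105, and at 186 and 130 (log2 difference 0.42, limma adjusted p = 0.67). Rhoa was at 94.5 to 184 (-0.13, limma adjusted p = 0.93), Gna12 at 30.6 to 56.9 (0.30, limma adjusted p = 0.72) and Arhgef1, an activator of RhoA, at 38.6 to 55.0 (0.21, limma adjusted p = 0.79). The median log2 difference of the 12 was 0.18.

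Among the adhesion G protein-coupled receptors, the family of CD97, 29 of 31 genes were found in the files and 12 were tested. Between type I and type III ECs, 2 rose and 2 fell, Cd97 being 1 of the latter, where 4.14% of all tested genes passed. Gpr56 was at 130 and 129, at 83.7 and 81.9, and at 53.1 and 67.8 FPKM, and fell by 1.10 on the log2 scale (limma adjusted p = 0.031). Gpr126, known for its role in myelination by Schwann cells, was at 0.303 and 0.404, at 2.13 and 2.43, and at 9.09 and 8.45. It rose by 2.85 (limma adjusted p = 0.0017), and Celsr1, a planar cell polarity gene, rose by 2.41 (limma adjusted p = 0.0069) from 0.704 and 0.423 to 5.81 and 9.08. Neither gene reached an FPKM of 1 in type I ECs, so both passed the filter only through the subsets where they were higher. The type I values of Gpr126 were near the median FPKM of 3 fragments. The abundant endothelial members Eltd1 and Gpr116 did not pass, with Eltd1 at 45.8 to 115 FPKM (log2 difference -0.64, limma adjusted p = 0.47) and Gpr116 at 97.7 to 149 (-0.41, limma adjusted p = 0.51). Lphn2, a latrophilin, was at 26.5 to 37.3 (-0.32, limma adjusted p = 0.68). In the comparisons with type II ECs 0 of the 12 passed in limma, and 4 between type I and II and 5 between type II and III had an unadjusted p under 0.05. With the block, Gpr126 passed between type II and III (limma adjusted p = 0.041). The median over the 12 was -0.18 between type I and III.

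CD55 and CD59 both need a GPI anchor. Of 28 genes of anchor synthesis, 27 were in the files and 25 were tested. In each comparison 0 of 25 passed in limma, also with the replicate block, and 0, 0 and 1 of 25 had an unadjusted p under 0.05 between type I and III, I and II, and II and III. Their median log2 difference between type I and III was 0.16, and Pigt, a subunit of the enzyme that attaches the anchor, was the most abundant at 30.7 to 47.1 FPKM. It was followed by Dpm3, Pgap2 and Pigp, with mean FPKM of 24.5, 12.8 and 12.1.

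**Figure D5:**
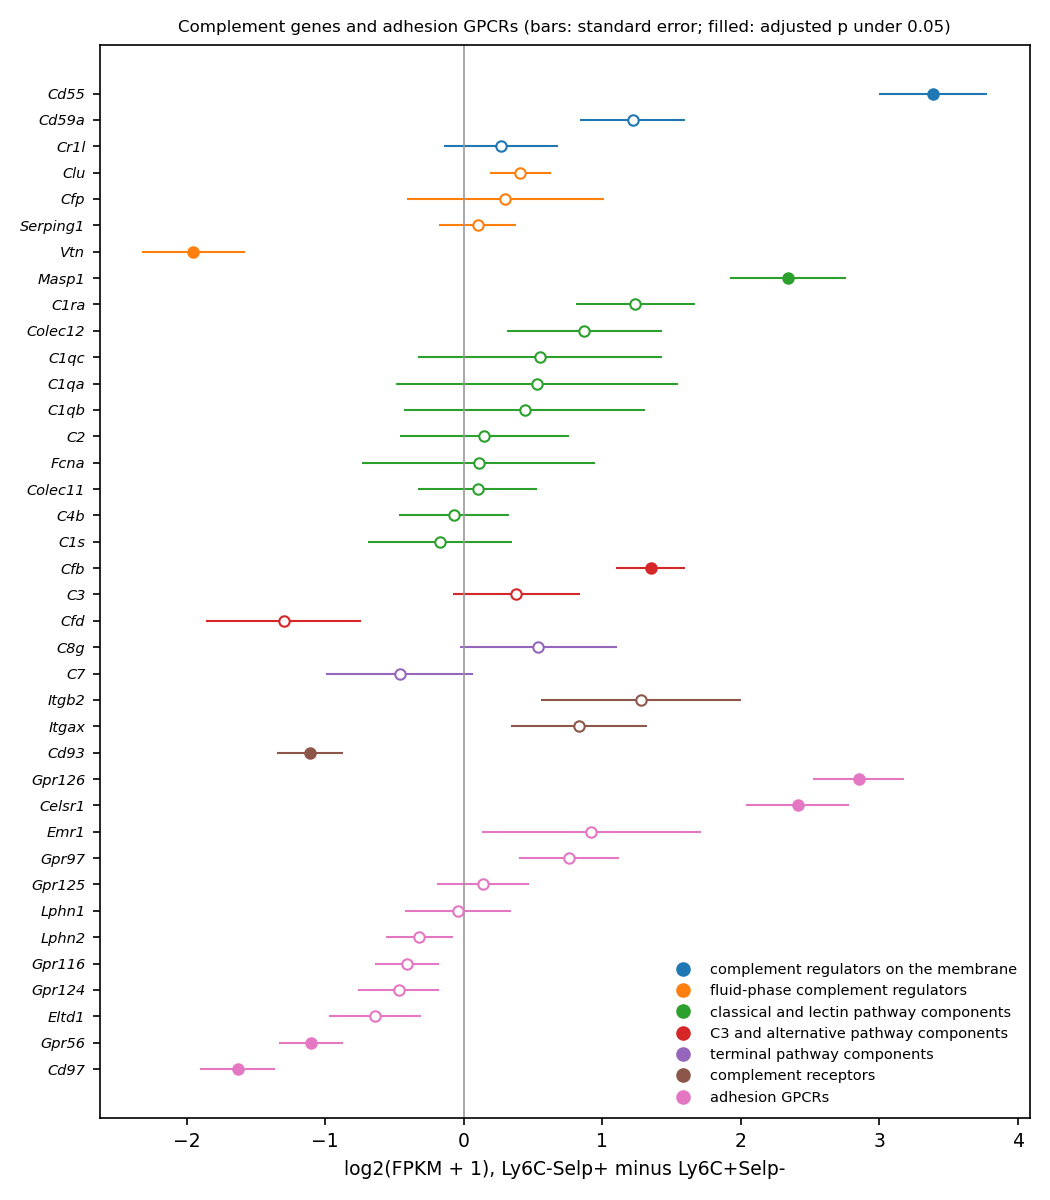
Difference in log2(FPKM + 1) between type III and type I ECs (horizontal axis) for every tested gene of 7 lists (vertical axis, coloured by list), with the standard error of the limma fit as a bar and filled symbols where the adjusted p is under 0.05. Filled to the right are Cd55 at 3.39, Gpr126, Celsr1, Masp1 and Cfb, and filled to the left are Vtn at -1.95, Cd97, Cd93 and Gpr56.

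Genes with the pattern most like those of Cd55 and Cd97 were ranked by Pearson's r of log2(FPKM + 1) over the 6 libraries, among 4190 genes with a mean FPKM of at least 10. The libraries share depth and subset, so r is a description. Most like Cd55 were Ptgs1, which encodes a cyclooxygenase (r = 0.9965), Ldb2, a transcriptional adaptor (0.9957), Ubd, a ubiquitin-like modifier (0.9955), Bace2, an aspartyl protease (0.9945), and Il2rg, a shared chain of cytokine receptors (0.9931). A high r does not mean a change of the same size. Between type I and type III ECs Ldb2 rose by 0.63 on the log2 scale (limma adjusted p = 0.23). The others named with it rose by 1.41 to 3.33 and passed the threshold. These genes were picked for their likeness to Cd55 in these same libraries, so their rise is not further evidence. The mean FPKM of Ubd was 19.4 ± 11.2 (SD, n = 2), 60.3 ± 7.29 (SD, n = 2) and 190 ± 38.3 (SD, n = 2) in the 3 subsets in order. Most like Cd97 were Jup, which encodes the junction protein plakoglobin (r = 0.9947), Nid2, a basement membrane protein (0.9946), Zfp366, a zinc finger protein (0.9941), Gpihbp1, the capillary anchor of lipoprotein lipase (0.9923), and Sox13, a transcription factor (0.9916). Gpihbp1 was at 441 ± 69.1 (SD, n = 2), 134 ± 38.1 (SD, n = 2) and 47.9 ± 16.1 (SD, n = 2).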

How the data were processed

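Reads were trimmed by the authors, mapped to mm9 and counted with Cufflinks, and the deposited FPKM of each library, with 95% bounds, were used as given. The submitters' processing notes name CASAVA 1.8, TopHat2 2.0.10, Cufflinks 2.1.1 and Cuffdiff, and the gene annotation is not given in the sources used here. Replicates were not pooled.

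Log2(FPKM + 1) was tested with limma 3.58.1 in R 4.3.3 (eBayes moderation, trend on) over all 6 libraries with a mean per subset and Benjamini-Hochberg adjustment over 11717 genes (threshold 0.05). Cuffdiff cannot be run on FPKM. An exact permutation test of 2 against 2 libraries cannot go below p = 0.33. The code was tested on simulated data. From the tables, 95 spike-in and reporter rows were left out of the tests. Fragments were read back from the bounds as if these held counting error only, and intervals and floors cover counting error only. Deviations of libraries with the same replicate number in the labels correlated weakly across 11717 genes, at 0.20, 0.31 and 0.18 between subsets. The numbers were taken to pair the libraries. The labels do not say what a number marks, so the block rests on an assumption. Where the blocked fit changes the call of a listed gene (the genes of the sort aside), it is given beside the result.

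The genes and lists were chosen with earlier results of these data known. Named are the 6 genes, every list gene past the threshold in any comparison and the 4 most abundant of each list, and the 5 genes most like Cd55 and Cd97. Also, C1ra was named after its values were seen. A gene of 1 list is not reported here and was left out of that list's counts. Alternatives were the pseudocount, the filter, scaling, the block, the trend, the samples in the fit and each replicate left out.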

Additional observations from a re-analysis of the deposited data

Results flagged for a closer look

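A row for the reporter mRFP, outside the tested genes, held signal in libraries of wild-type mice. Its FPKM was 18.2 and 1.83 in type I replicates 1 and 2, 23.7 and 5.31 in type II replicates 1 and 2, and 28.3 and 3.23 in type III replicates 1 and 2. Replicate 1 was the higher in each subset, as it was for Cd59a, Cr1l, C3 and the C1q genes, and for 39.3% of all tested genes. Its source was not tested.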

How the results depend on the processing

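Over 16 alternatives Cd55 passed between type I and type III ECs in 15 and Cd97 in 13, and neither changed direction. With no filter on low values, Cd55 (3.39, limma adjusted p = 0.13) and Cd97 (-1.63, limma adjusted p = 0.096) did not pass, and 0 of the 6 genes did. Then 102, 10 and 2 genes passed between type I and type III ECs, type I and type II ECs, and type II and III ECs, in place of 485, 46 and 26. That fit held 24457 genes, and the low rows also entered limma's estimate of the spread. In the same order the replicate block gave 971, 183 and 229, and with median scaling, added after seeing the data, 1128, 217 and 223. For the last 2 comparisons, median scaling gave 83 and 79, quantile normalization 103 and 90, no trend 15 and 10, and only the 4 libraries compared 29 and 7. Median scaling moved the split of higher and lower calls from 38 and 8 to 56 and 27, and from 11 and 15 to 21 and 58, and the median difference of all genes between type II and III ECs from 0.14 to 0.01. Cd55 passed between type I and type II ECs, as 1 of 6 genes, with median scaling, quantile normalization (1.93, limma adjusted p = 0.046), the block (1.84) and the block with median scaling (1.91, limma adjusted p = 0.036). Of the 6 genes, 5 had libraries that did not overlap between type II and III ECs with median scaling and with quantile normalization. The share of all tested genes after scaling is not given. The replicate block changed no other call of the 6 genes beside those of Cd55 and Cd59a given above. The block with median scaling gave Cd59a 1.14 (limma adjusted p = 0.036).

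With 1 library left out, which assumes that the lone library varies like the others, 209 to 404, 12 to 33 and 2 to 14 genes passed. Between type I and III the count was 209 and 219 without type III replicates 1 and 2 and 249 without type I replicate 2. Of the 6 genes, 1 to 3 passed between type I and type III ECs and 0 in the other comparisons. The log2 difference there was 2.92 to 3.86 for Cd55 and -1.80 to -1.45 for Cd97. Of the 6 genes, those without overlap numbered 3 to 6, 5 and 4 to 5. A lone library separates from 2 others more easily than 2 libraries do. The share of all tested genes is not given for these counts, so they have no background. Differences that did not pass changed sign in some of these fits. C3 ranged from -0.28 to 1.04 and Serping1 from -0.23 to 0.44 between type I and III, both lowest without type I replicate 2. Cr1l ranged from -0.20 to 0.74 there, with -0.06 without type I replicate 2 and -0.20 without type III replicate 1. Cr1l ranged from -0.58 to 0.28 between type I and II, with 0.18 without type I replicate 1 and 0.28 without type II replicate 2. Between type II and III, Cr1l ranged from -0.05 to 0.89, with -0.01 without type II replicate 2 and -0.05 without type III replicate 1, and Cd59a from -0.21 to 0, the latter without type III replicate 2. Serping1 reached 0 between type I and III with quantile normalization. The cause was not tested. Depth limits Cd55 in type I ECs and the genes under 3 fragments.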
